A study of Boehmeria nivea with 10 samples.

Results

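Among the transcript contigs of ramie (Boehmeria nivea) roots, 100 were singled out because they were at about the same level in early hydroponic and terrestrial roots and lower in late hydroponic roots. They were chosen in steps from the 40300 contigs listed in any of the 9 libraries. A member was a contig that the assembly left outside its clusters (31098 contigs), with an expected count of at least 10 in every library (13171), and with an early mean within 1.4-fold of the terrestrial mean in either direction (4077). These 4077 were ranked by a gap, the lowest value of the 6 early and terrestrial libraries divided by the highest value of the 3 late ones, and the first 100 were taken. Values are FPKM, the reads of a contig scaled to its length and to the reads of the library.

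Ramie is a perennial bast-fibre plant of the nettle family, and here roots were induced on it in water or grown in soil. Early hydroponic roots were aquatic roots at a seedling age of 5 days, late hydroponic roots were aquatic roots at 30 days, and terrestrial roots were soil roots at 30 days, with 3 libraries each. Late roots therefore differed from early roots in seedling age and from terrestrial roots in medium, and early roots differed from terrestrial roots in both. Whether each library was a plant of its own is not stated in the labels, and neither is a cultivar.

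Gas diffuses far more slowly through water than through air, so roots under water live with little oxygen unless the water is aerated. Roots that form in water commonly differ from soil roots in having more air channels in the cortex and fewer root hairs. A contig is a stretch of transcript assembled from reads without a genome, and it may be a whole transcript or a piece of one. The tables pair no contig with a gene name, description or sequence, so no function is given for any member, and the number of genes behind the 100 contigs is not known. Markers of root cell types could not be matched to contigs for the same reason. In bulk root RNA, less of a transcript per cell and fewer of the cells that hold it cannot be told apart.

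The listed counts of a library summed to 11424582 to 11522430 in early, 9499903 to 10328909 in late and 10473340 to 10702907 in terrestrial roots. Late libraries listed 34891 to 35313 contigs, against 33891 to 34409 in early and 33480 to 33974 in terrestrial libraries. No library was left out of the values that follow.

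Members lay 1.70-fold higher in early than in late roots and 1.82-fold higher in terrestrial than in late roots, as medians of the ratios of group means over the 100 contigs. The median member stood at 20.65, 22.21 and 20.23 FPKM in early replicates 1, 2 and 3, at 11.24, 12.47 and 13.62 FPKM in late replicates 1, 2 and 3, and at 25.12, 22.21 and 25.75 FPKM in terrestrial replicates 1, 2 and 3. Each late library thus had a lower median than any of the other 6, and late replicate 3 had the highest of the late ones. These values chose the members, so they are a description and not a test. The other 3977 contigs within the filters had medians of 13.62 to 14.36 FPKM in early, 15.38 to 15.99 FPKM in late and 13.72 to 15.01 FPKM in terrestrial libraries.

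As a share of all counts, the members together took 0.588, 0.667 and 0.563% of early replicates 1, 2 and 3, 0.321, 0.367 and 0.390% of late replicates 1, 2 and 3, and 0.705, 0.652 and 0.676% of terrestrial replicates 1, 2 and 3. Every late share lay below every other, while early and terrestrial shares overlapped. The low late shares follow from the choice of members, here and without any single member, so they are a description. One contig, Unigene2088_mixA, held 0.0598 to 0.0770% of the late libraries and 0.0953 to 0.156% of the others. Without it the other 99 members held 0.261 to 0.314% of late libraries, 0.468 to 0.544% of early libraries and 0.497 to 0.588% of terrestrial libraries, with the same order and overlap.

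The gap was narrow for most members. It was 3.09 for the first member, 1.205 for the median member and 1.096 for the last. It reached 2 in 4 members, 1.5 in 14 and 1.2 in 51. Measured on group means, 23 members were 2-fold or more higher in both early and terrestrial roots than in late roots, and 5 were 3-fold or more higher in both. Among the other 3977 contigs within the filters these shares were 0.226% and 0.0251%. In 12 members both ratios were under 1.5, against 95.0% of the others. The rule chose the members for low late values, so these counts are a description. Of all 4077 contigs within the filters, 218 (5.35%) had every late library below every early and terrestrial library, and the members are the first 100 of these.

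**Figure D1:**
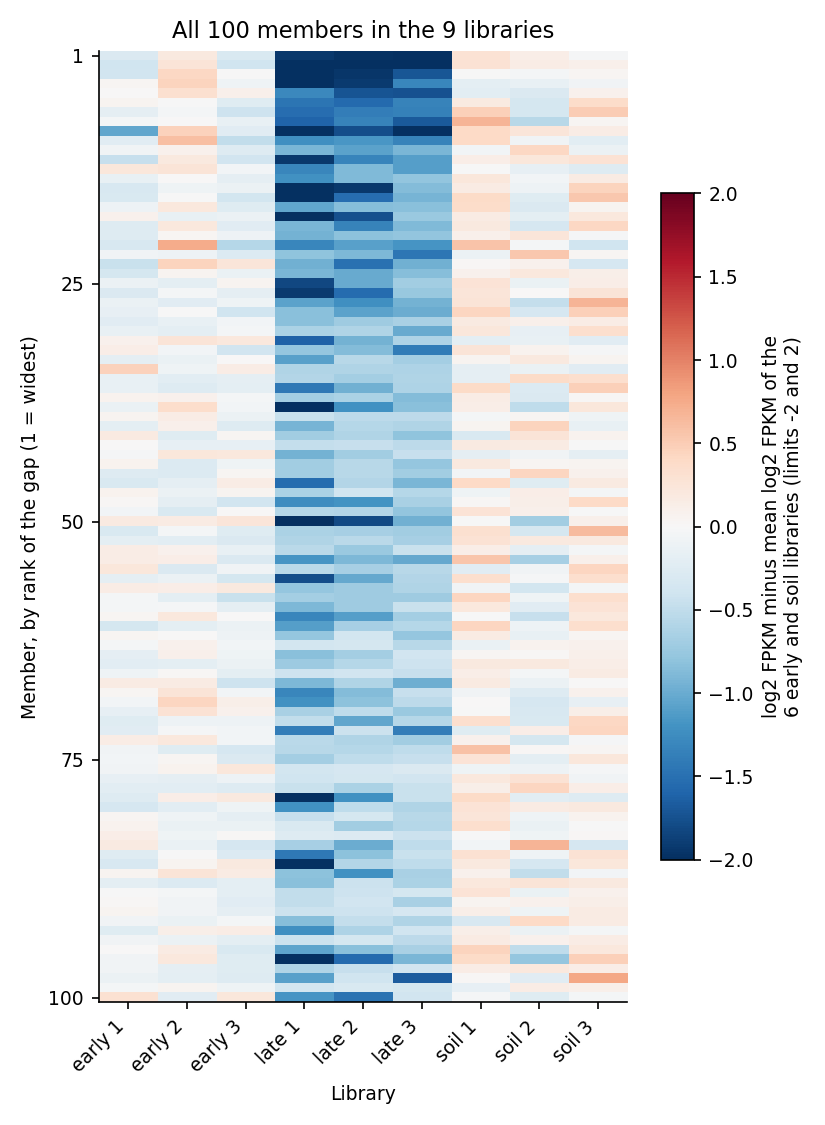
Each row is 1 of the 100 members, ordered by rank of the gap, and each column is 1 library; "soil" stands for terrestrial roots. Colour gives the log2 FPKM minus the mean log2 FPKM of the 6 early and terrestrial libraries, so blue is lower than that mean. All late cells are blue by the rule, and some early and soil cells are blue too. The late columns are mostly dark in the first ranks and pale in many of ranks 51 to 100, where the median gap was 1.13. Exceptions include late replicate 1 of Unigene139_mixA (rank 79) and Unigene32315_mixA (rank 96), which are dark.

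The widest gap was in Unigene2743_mixA, a contig of 2329 bases. It stood at 72.34, 101.07 and 71.52 FPKM in early replicates 1, 2 and 3, at 23.15, 22.41 and 17.99 FPKM in late replicates and at 108.47, 97.27 and 87.29 FPKM in terrestrial replicates. The lowest of the 6 other libraries lay 3.09-fold above the highest late library. Group means were 81.6 ± 16.8 FPKM early, 21.2 ± 2.79 late and 97.7 ± 10.6 terrestrial (SD, n = 3 each), a level 3.85-fold higher in early and 4.61-fold higher in terrestrial than in late roots.

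Unigene16922_mixA, of 219 bases, had nearly the same gap, 3.07. It stood at 30.09, 47.59 and 30.21 FPKM in early, 9.17, 8.97 and 9.80 FPKM in late and 48.38, 44.27 and 42.80 FPKM in terrestrial replicates 1, 2 and 3. The late libraries lay close together, and early replicate 2 reached the terrestrial level while the other early libraries did not. The contig is short, and its lowest count was 16 reads, so its late level rests on few reads.

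Unigene31107_mixA, of 1819 bases, came next, with a gap of 2.52. It stood at 12.23, 21.21 and 15.85 FPKM in early, 3.37, 4.13 and 4.86 FPKM in late and 15.93, 15.50 and 16.38 FPKM in terrestrial replicates. Its early and terrestrial means were nearly equal, 16.4 ± 4.52 and 15.9 ± 0.44 FPKM (SD, n = 3), with 4.12 ± 0.745 FPKM in late roots.

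Unigene3334_mixA, of 795 bases, was the last member whose gap reached 2, at 2.17. It stood at 8.91, 11.79 and 8.16 FPKM in early, 1.95, 2.29 and 3.48 FPKM in late and 7.56, 7.75 and 8.21 FPKM in terrestrial replicates, with a lowest count of 15 reads. Unigene2301_mixA, of 207 bases, followed with 29.73, 36.96 and 31.84 FPKM in early, 12.13, 9.0 and 8.84 FPKM in late and 25.63, 24.23 and 31.63 FPKM in terrestrial replicates, again with a lowest count of 15 reads. Both were on average higher in early than in terrestrial roots, by 1.23-fold and 1.21-fold.

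Unigene5793_mixA, of 3350 bases, had a gap of 1.97 and late libraries within 1.16-fold of each other. It stood at 35.90, 34.54 and 29.36 FPKM in early, 12.54, 11.86 and 13.78 FPKM in late and 39.18, 27.18 and 44.93 FPKM in terrestrial replicates. In 8 of 9 libraries its count was not whole, as can happen when reads are divided between contigs, which was not examined. Unigene32226_mixA, of 1490 bases, was a low contig with 4.82, 5.33 and 4.09 FPKM in early, 1.90, 2.11 and 2.14 FPKM in late and 7.64, 4.30 and 7.80 FPKM in terrestrial replicates. In both, terrestrial replicate 2 was the lowest terrestrial library. It was the lowest of all 6 in Unigene5793_mixA, while early replicate 3 was the lowest of the 6 in Unigene32226_mixA.

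Unigene12617_mixA, of 460 bases, stood at 13.90, 14.31 and 12.86 FPKM in early, 4.66, 5.62 and 4.43 FPKM in late and 22.84, 9.67 and 14.58 FPKM in terrestrial replicates. Its terrestrial libraries were 2.36-fold apart, and none of its 9 counts was whole. Unigene18132_mixA, of 2078 bases, stood at 73.00, 129.43 and 60.54 FPKM in early, 36.51, 38.20 and 33.90 FPKM in late and 112.62, 81.76 and 73.97 FPKM in terrestrial replicates. In this contig the late libraries were the most even group, within 1.13-fold of each other.

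Unigene6332_mixA, of 540 bases, had the largest ratios of group means of all members, 4.67 for early over late and 6.19 for terrestrial over late. It stood at 51.18, 144.76 and 89.46 FPKM in early, 18.97, 30.49 and 11.59 FPKM in late and 137.39, 123.99 and 116.35 FPKM in terrestrial replicates. Early and late libraries were both uneven, so the gap was 1.68 and the contig ranked ninth.

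**Figure D2:**
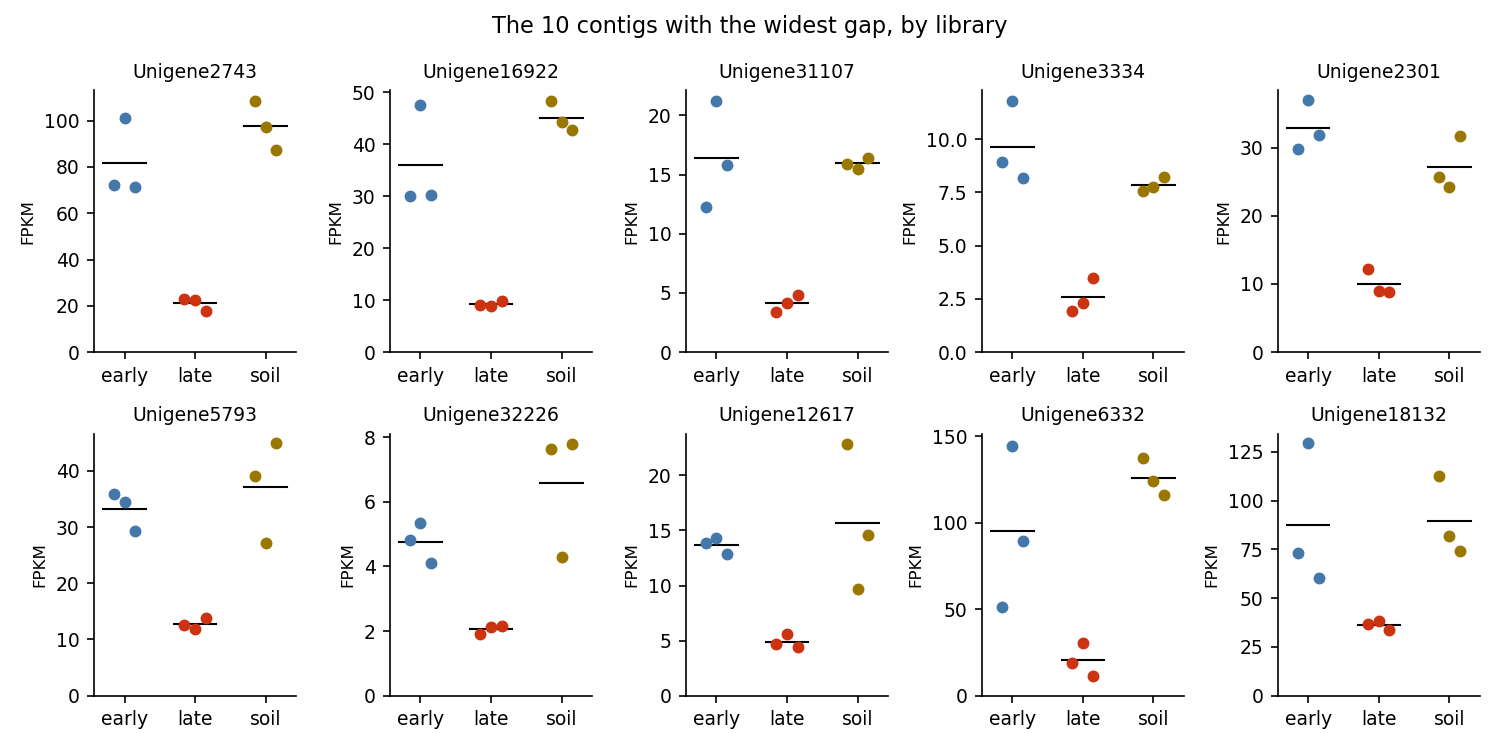
FPKM of the 10 members with the widest gap, 1 panel per contig, with 1 point per library (replicates 1, 2 and 3 from left to right), a bar at the group mean and "soil" for terrestrial roots. In each panel the late points lie below all others, by 3.09-fold in Unigene2743_mixA and by 1.58-fold in Unigene18132_mixA, and early replicate 2 is the highest early point in 9 of the 10 panels.

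Early replicate 2 was the highest early library in 9 of these 10 contigs and in 50 of the 100 members, against 26.3% of the other contigs within the filters. Early replicate 3 was the lowest early library in 48 members, against 24.2% of the others. What lay behind the higher values of early replicate 2 was not tested.

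The most abundant member by far was Unigene2088_mixA, of 591 bases. It stood at 1746, 2147 and 1671 FPKM in early, 1048, 1350 and 1316 FPKM in late and 2064, 2734 and 1799 FPKM in terrestrial replicates 1, 2 and 3. Its gap was 1.24, and its means were 1855 ± 256, 1238 ± 165 and 2199 ± 482 FPKM (SD, n = 3). Its counts were whole in no library, so its level may depend on how reads shared with other contigs were divided.

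Unigene5179_mixA, of 333 bases, had the most even late libraries of all members. It stood at 436.03, 298.00 and 351.84 FPKM in early, 207.65, 209.10 and 206.55 FPKM in late and 280.52, 286.98 and 271.67 FPKM in terrestrial replicates. Its late libraries lay within 1.01-fold of each other and its terrestrial ones within 1.06-fold, while its early libraries spread 1.46-fold. Its counts too were whole in no library.

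Unigene23039_mixA, of 924 bases, stood at 151.74, 140.50 and 146.23 FPKM in early, 61.90, 86.14 and 108.66 FPKM in late and 218.04, 138.43 and 234.06 FPKM in terrestrial replicates. Unigene14829_mixA, of 847 bases, stood at 128.01, 150.55 and 147.46 FPKM in early, 34.62, 41.79 and 87.12 FPKM in late and 178.23, 148.05 and 217.06 FPKM in terrestrial replicates. In both contigs late replicate 3 was the highest late library and terrestrial replicate 2 the lowest terrestrial one. Unigene831_mixA, of 1637 bases, was more even, at 123.97, 150.18 and 132.55 FPKM in early, 78.49, 87.91 and 107.83 FPKM in late and 144.48, 142.52 and 151.15 FPKM in terrestrial replicates.

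In all, 9 members had a mean of 100 FPKM or more over the early and terrestrial libraries, 9% against 4.20% of the other contigs within the filters, and 19 lay under 10 FPKM, against 37.4% of the others. The median of that mean was 23.2 FPKM in members and 14.2 FPKM in the others. A level in these 6 libraries enters the rule, so the comparison is a description.

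Contig length was not used by the rule. Members had a median length of 1388 bases (quartiles 712 and 2196, range 205 to 4345), and the other contigs within the filters had a median of 1399 bases (quartiles 871 and 2003). Contigs under 500 bases made up 15 of the 100 members and 11.4% of the others, and contigs of 2000 bases or more 29 of the members and 25.2% of the others. Counts were whole in all 9 libraries for 86 members and for 86.7% of the others. On these measures the members lay close to the contigs they were chosen from, and no test was made.

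Length did vary with rank within the members. The median length was 1142 bases in ranks 1 to 10, 968 bases in ranks 11 to 50 and 1670 bases in ranks 51 to 100. Long contigs gather more reads at a given level. The lowest count of the 9 libraries was under 50 reads in 29 members, against 24.3% of the others, and under 20 reads in 9 members.

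The 5 longest members had modest gaps. Unigene4599_mixA, of 4345 bases, stood at 46.55, 51.73 and 37.38 FPKM in early, 22.42, 26.10 and 29.48 FPKM in late and 63.10, 32.71 and 53.44 FPKM in terrestrial replicates, with a gap of 1.11. Unigene13785_mixA, of 4079 bases, was tighter, at 30.14, 27.72 and 25.91 FPKM in early, 21.21, 22.99 and 19.94 FPKM in late and 34.52, 27.46 and 30.75 FPKM in terrestrial replicates. The first of these owed its narrow gap to terrestrial replicate 2, while in the second the groups lay close together, with early 1.31-fold above late.

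Unigene9988_mixA, of 4055 bases, stood at 13.94, 11.02 and 12.54 FPKM in early, 8.21, 9.04 and 7.78 FPKM in late and 15.13, 13.55 and 13.74 FPKM in terrestrial replicates. Unigene5581_mixA, of 3728 bases, stood at 18.13, 18.89 and 15.72 FPKM in early, 11.23, 10.76 and 10.13 FPKM in late and 17.41, 12.78 and 16.05 FPKM in terrestrial replicates. The late libraries of both were within 1.16-fold of each other. Unigene22118_mixA, of 3555 bases and 115 ± 10.4 FPKM in early roots, stood at 116.84, 125.05 and 104.41 FPKM in early, 83.08, 78.59 and 78.29 FPKM in late and 109.33, 115.83 and 106.32 FPKM in terrestrial replicates, with at least 2702 reads in each library.

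Members were lower in late roots by about the same factor against either group, because the rule tied early and terrestrial means together. On the FPKM scale 75 of the 100 members had a lower mean in early than in terrestrial roots, with a median ratio of 0.882, against 53.9% and a median of 0.974 in the other contigs within the filters. With TMM scaling, which corrects for differences in library composition, only 38 members had the lower value in early roots, so this direction turned with the scaling. All 100 members had a fitted log2 change below 0 against both groups with TMM scaling and with library totals alone. The rule had chosen them for low late values, so this direction was largely set by the choice and is a description.

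**Figure D3:**
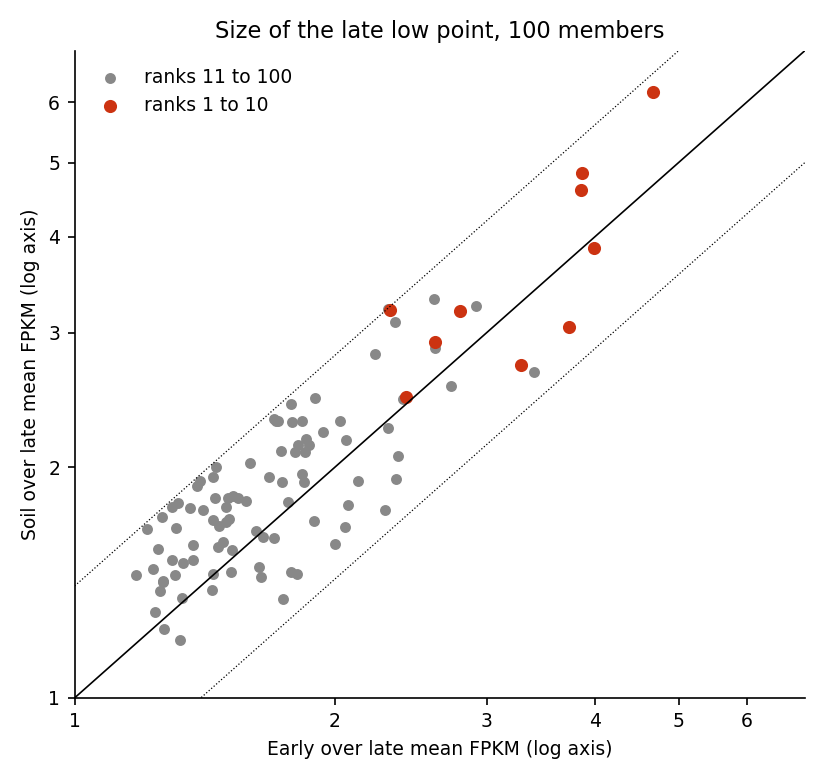
Each point is a member, placed by its early over late ratio and its terrestrial over late ratio of mean FPKM, both on log axes; the solid line marks equal ratios and the dotted lines the 1.4-fold window of the rule. Most of the 100 points lie above the solid line, the 75 with the higher mean in terrestrial roots, and 55 lie under 2 on both axes.

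The rule's window had 3 named contigs at each end. Unigene26925_mixA had the highest early to terrestrial ratio, 1.301, at 41.37, 46.57 and 45 FPKM in early, 12.60, 20.19 and 25.37 FPKM in late and 33.89, 35.08 and 33.20 FPKM in terrestrial replicates. Unigene5179_mixA followed with 1.29, from the values above. Unigene1502_mixA had a ratio of 1.28, at 46.73, 46.35 and 48.73 FPKM in early, 8.68, 11.79 and 21.25 FPKM in late and 41.23, 25.61 and 44.33 FPKM in terrestrial replicates. In all 3 contigs every early library lay above every terrestrial one, so late roots were lowest, terrestrial roots intermediate and early roots highest.

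At the other end, Unigene237_mixA had a ratio of 0.716, at 33.34, 41.25 and 31.91 FPKM in early, 10.07, 14.38 and 21.77 FPKM in late and 54.00, 34.79 and 59.86 FPKM in terrestrial replicates. Unigene32226_mixA, described above, had 0.721. Unigene4849_mixA had 0.728, at 63.96, 64.35 and 61.86 FPKM in early, 54.66, 47.91 and 54.45 FPKM in late and 80.25, 99.35 and 81.61 FPKM in terrestrial replicates. There the early level lay only 1.21-fold above the late level, and terrestrial roots stood apart from both.

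The late libraries were unevenly low. Late replicate 1 was the lowest late library in 53 members (40.8% of the other contigs) and late replicate 3 the highest in 49 (31.3% of the others). The highest late library was 1.29-fold above the lowest in the median member, against 1.28-fold in the others, but 15 members had a 2-fold spread or more, against 7.74% of the others. In 44 members the spread between late libraries was smaller than the gap to the other groups, against 0.151% of the other contigs. The gap ranked the members, so this count was largely set by the choice and is a description.

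Of the 15 members with a 2-fold late spread, 12 had late replicate 1 lowest and late replicate 3 highest, and 12 had terrestrial replicate 2 lowest of its group. Of the other 85, 27 had that order of late libraries and 48 had terrestrial replicate 2 lowest. Terrestrial replicate 2 was also the lowest of its group in 51.5% of the other 3977 contigs within the filters. The late order was not counted in those contigs. The 15 contigs had larger ratios of means, a median of 2.30 for early over late and 2.56 for terrestrial over late, against 1.60 and 1.78 in the other 85. The 15 were picked by their spread, so these counts are a description, and what sets late replicate 3 and terrestrial replicate 2 apart in them was not tested.

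Unigene139_mixA, of 1267 bases, had the largest late spread, 4.38-fold. It stood at 13.11, 17.16 and 17.99 FPKM in early, 2.64, 6.74 and 11.55 FPKM in late and 20.42, 13.58 and 13.07 FPKM in terrestrial replicates 1, 2 and 3. Unigene32315_mixA, of 2409 bases, came next, at 57.69, 70.31 and 51.48 FPKM in early, 8.51, 20.70 and 32.34 FPKM in late and 79.61, 35.68 and 84.62 FPKM in terrestrial replicates. In the latter, late replicate 3 and terrestrial replicate 2 were only 1.103-fold apart, whereas late replicate 1 lay 3.80-fold below late replicate 3.

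Unigene11614_mixA, of 1443 bases, stood at 115.51, 162.49 and 122.24 FPKM in early, 21.35, 54.72 and 70.75 FPKM in late and 138.49, 89.03 and 147.76 FPKM in terrestrial replicates, a late spread of 3.31-fold. At the even end, after Unigene5179_mixA, Unigene21762_mixA stood at 7.91, 7.13 and 5.98 FPKM in early, 5.10, 4.96 and 4.98 FPKM in late and 10.93, 7.69 and 10.25 FPKM in terrestrial replicates. Unigene14641_mixA stood at 40.15, 39.76 and 42.04 FPKM in early, 34.14, 35.11 and 34.30 FPKM in late and 51.76, 55.01 and 42.99 FPKM in terrestrial replicates. Even late libraries thus went with small differences in Unigene14641_mixA, whose early mean was 1.18-fold above its late mean, the smallest early ratio of any member.

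**Figure D4:**
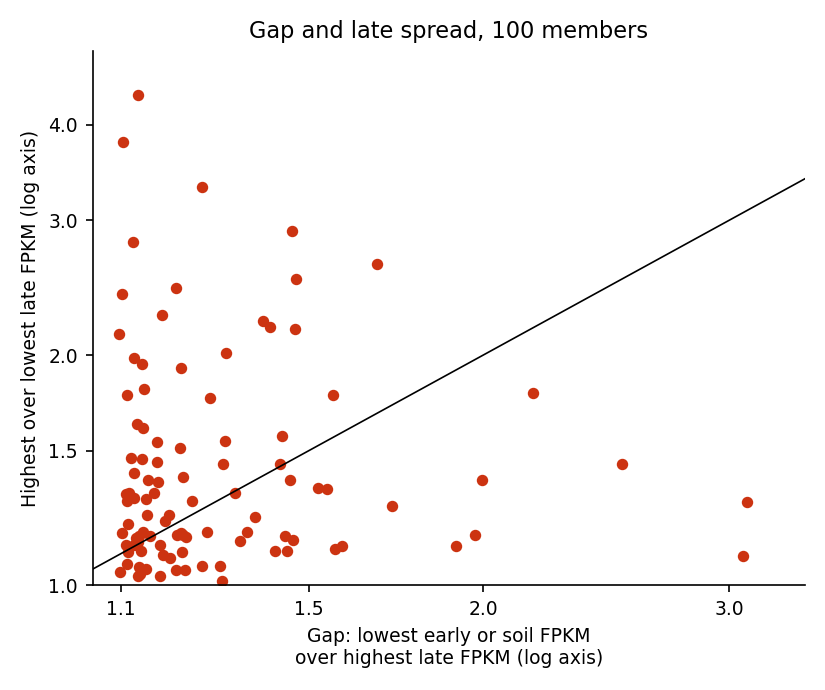
Each point is 1 of the 100 members, with the gap between groups on the x axis and the highest over the lowest late FPKM on the y axis, both log axes; the line marks equal values. The 44 members under the line had late libraries closer to each other than to the nearest early or terrestrial library, and Unigene139_mixA is the highest point, at 4.38. The gap ranked the members, so the number under the line is a description.

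The border of the set fell among contigs with nearly equal gaps. Unigene19243_mixA, Unigene3938_mixA and Unigene5715_mixA were the last to enter, with gaps of 1.102, 1.098 and 1.096, and Unigene11318_mixA, Unigene7380_mixA and Unigene17506_mixA were the first left out, with 1.096, 1.093 and 1.092. Unigene11318_mixA, of 2403 bases, had a mean of 428.6 FPKM over the 6 early and terrestrial libraries, above every member but Unigene2088_mixA, and stood at 505.70, 419.17 and 461.66 FPKM in early, 326.10, 313.47 and 295.09 FPKM in late and 384.15, 443.45 and 357.30 FPKM in terrestrial replicates. Unigene5715_mixA, the last member, stood at 7.01, 4.88 and 6.64 FPKM in early, 2.52, 2.05 and 4.37 FPKM in late and 5.62, 4.79 and 5.57 FPKM in terrestrial replicates. Its mean was 2.07-fold higher in early than in late roots, and late replicate 3 alone made its gap narrow.

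All 26747 contigs that passed a filter on low counts were fitted together with edgeR's quasi-likelihood test, and a contig was called at an adjusted p under 0.05 with Benjamini-Hochberg adjustment over all of them. All 100 members were among those tested. Of these, 81 were called lower in late than in early roots, where 6.3% of all tested contigs were called lower. That count was 36, 36 and 48 without early replicate 1, 2 and 3 and 41 and 45 without late replicate 1 and 2, with 8 libraries in the test, and 51 with library totals alone. The number called lower over all tested contigs fell as well, from 1684 to 651, 654 and 707 without early replicate 1, 2 and 3. It was 749 and 846 without late replicate 1 and 2, and 1052 with library totals alone. Those fits tested 28110, 28045, 28039, 28011, 27985 and 26747 contigs in the same order. Against terrestrial roots 86 members were called lower in late roots, where 24.2% of all tested contigs were. Both calls were made for 75 members and for 1.11% of all tested contigs. The rule had used the same contrasts, so nothing is read from these counts beyond which members met the threshold.

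A further 11 members were called against terrestrial roots alone and 6 against early roots alone, and 8 were called against neither. Over all 26747 tested contigs 6475 were called lower against terrestrial roots, 1684 against early roots and 296 against both. Nothing is read from the 11, 6 and 8 beyond which members met the threshold. Unigene139_mixA was among the 8, with its uneven late libraries, and so was Unigene23309_mixA, of 1419 bases, whose means were 5.42 FPKM early, 4.09 late and 4.88 terrestrial and which was picked as an example after its values were seen. The median fitted log2 change of the members was -0.92 against early roots, beside 0.04 over all tested contigs, and -0.78 against terrestrial roots, beside 0.02. Between early and terrestrial roots 8 members were called, all higher in early roots, where 61.1% of all tested contigs were called in either direction. The window of the rule holds this number down. It was 17 without late replicate 3, 5, 4 and 5 without early replicate 1, 2 and 3, and 5 without terrestrial replicate 3. Calls over all tested contigs in those fits numbered 17059, then 14989, 14977 and 14617, and then 15381, beside 16347 with all 9 libraries. With library totals alone 1 member was called higher and 7 lower in early roots, so the direction of these calls turned with the scaling. The balance over all tested contigs moved the same way. It was 6780 higher and 10132 lower with library totals alone, beside 8064 and 8283 with TMM scaling.

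The members called higher in early than in terrestrial roots included Unigene26925_mixA, with a fitted log2 change of 0.61 ± 0.22, Unigene5179_mixA, with 0.60 ± 0.14, and Unigene5581_mixA, with 0.43 ± 0.13 (SE derived from the test's F statistic). These contigs were thus lowest in late roots and, with TMM scaling, highest in early roots. Unigene5179_mixA was not called lower against terrestrial roots, where its fitted log2 change was -0.34 ± 0.14, although its late and terrestrial libraries did not overlap.

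The choice was also repeated with 1 library kept out of it. The rule was run on 8 libraries, and the 100 contigs it then chose were read in the ninth. With late replicate 1 left out, 85 of the 100 chosen contigs lay below all 6 early and terrestrial libraries in late replicate 1, where 20.3% of all contigs within the filters did. In late replicate 2, 79 of 100 did, against 13.6%, and in late replicate 3, 62 of 100, against 15.1%. The unread late library is set against the same 6 early and terrestrial libraries whose high values chose the contigs, so the reading is only partly independent of the rule. The share over all contigs is the background of the filters, not the share that contigs chosen for high values in those 6 libraries would give with no change, and no test was made.

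The gap in the unread library was smaller in 2 of the 3 cases. It sets the lowest early or terrestrial library against 1 late library, where the choice had used the higher of 2. With late replicate 3 left out, the median gap of the chosen contigs was 1.49 in the 8 libraries that chose them and 1.13 in late replicate 3, where individual contigs ran from 0.333 to 4.42. With late replicate 2 left out, the medians were 1.34 and 1.22. With late replicate 1 left out, the unread library gave the larger value, 1.43 against 1.24.

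The early and terrestrial side was read in the same way, as a value above all 3 late libraries, and with the same limit, since the low late values had chosen the contigs. In early replicates 1, 2 and 3, 87, 90 and 94 of the 100 contigs chosen without that library lay above all 3 late libraries, where 21.2, 19 and 24% of all contigs within the filters did. In terrestrial replicate 1 it was 98 of 100, against 30.4%, and in terrestrial replicate 3 all 100, against 33%. In terrestrial replicate 2 it was 76 of 100, against 23.8%, and the lowest of these contigs stood at 0.177 of the highest late library. Late replicate 3 and terrestrial replicate 2 were the libraries in which the fewest chosen contigs held their side.

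**Figure D5:**
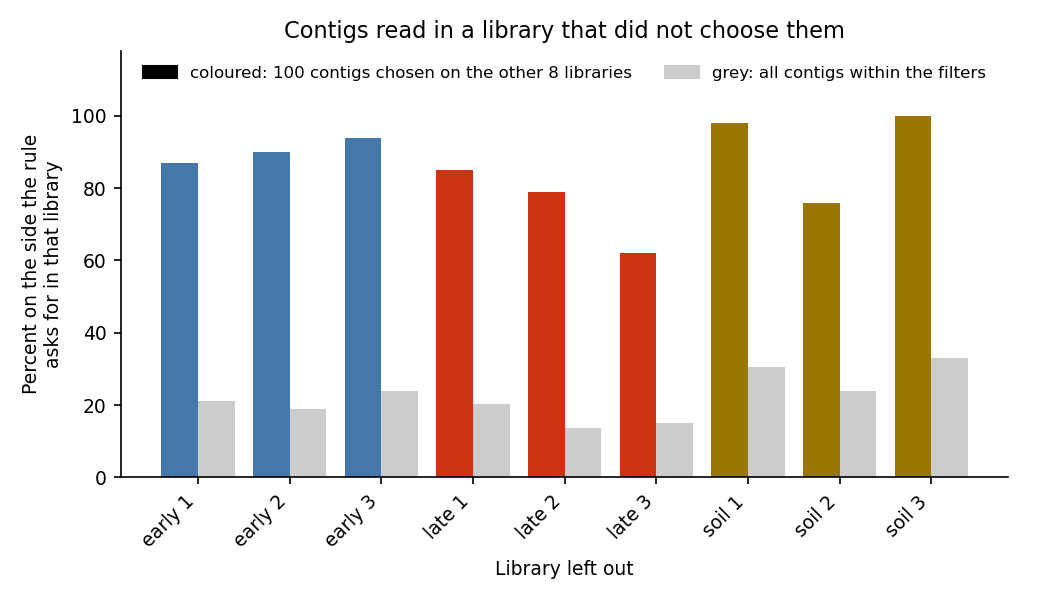
For each library left out in turn, the coloured bar gives the percent of the 100 contigs chosen on the other 8 libraries that lay on the side the rule asks for (below all early and terrestrial libraries for a late one, above all late libraries for the others), and the grey bar the same percent over all contigs within the filters; "soil" stands for terrestrial roots. Coloured bars run from 62 for late replicate 3 to 100 for terrestrial replicate 3, and grey bars from 13.6 to 33.

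The list of members itself shifted when a library was left out. Between 54 (without late replicate 3) and 86 of the 100 stayed among the first 100, and 59 did without terrestrial replicate 2. Only 30 members were chosen in all 9 such runs, and 29 of these held ranks 1 to 50. Among the 10 described first, 7 were chosen in all 9 runs. The exceptions were Unigene16922_mixA and Unigene6332_mixA, each chosen in 8, and Unigene32226_mixA, chosen in 7. Unigene2088_mixA was chosen in 8 and dropped out without late replicate 3. At the other end, 21 members were chosen in 3 runs or fewer.

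Contigs that the assembly put in clusters were kept out by the rule, although 1581 of them met the count and window filters. Of these, 72 (4.55%) had every late library below all 6 others, and 33, from 28 clusters, had a gap at least as wide as the last member. The widest was in CL498.Contig1_mixA, of 1255 bases, at 21.63, 49.92 and 34.95 FPKM in early, 6.38, 6.22 and 3.86 FPKM in late and 25.60, 36.62 and 19.92 FPKM in terrestrial replicates. Its gap of 3.12 was slightly above that of Unigene2743_mixA, and it was chosen as an example after its values were seen.

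Set beside the same rule turned on the other groups, the low point of late roots was shallow. Ranked for the lowest level in early roots, with late and terrestrial means within 1.4-fold, the first 100 contigs had a median gap of 2.10, and ranked for the lowest level in terrestrial roots, with early and late means within 1.4-fold, 5.83, against 1.205 for the members. The filters kept 5149 contigs for early, 8648 for terrestrial and 4077 for late roots. A first 100 from a larger pool can reach wider gaps, so the medians are not on an equal footing. The share within the respective filters with no overlap between the low group and the other 6 libraries was 24.5% for early and 27.2% for terrestrial roots. For late roots it was 5.35%. Within the members' own filters, 561 contigs had every late library above all 6 others, more than the 218 with every late library below. These differences were not tested, and they were read on the FPKM scale alone. Scaling moves the late level against the others. Over all tested contigs the median fitted log2 change of late against early roots was 0.18 with library totals alone and 0.04 with TMM scaling. Against terrestrial roots it was -0.07 and 0.02.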

How the data were processed

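RNA of ramie roots was sequenced in 9 libraries of 3 groups. A pooled sample is not analysed here. Per the series' design text, reads were counted on contigs assembled de novo from pooled roots. The aligner, counting program and their versions are not given in the sources used here. Per the file headers, each deposited table gives a contig's length, expected count (an estimate that need not be whole) and FPKM, which the authors scaled to contig length and library reads. Counts summed to 9499903 to 11522430 per library. A contig not listed in a library was entered as 0.

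The members and lists were chosen with earlier results of these data known. The naming rule took ranks 1 to 10, the 5 most abundant, the 5 longest, the 3 most and the 3 least uneven in late roots, the 3 at each end of the early to terrestrial window and the contigs on each side of rank 100. Other named contigs are marked as chosen after their values were seen. A count was called whole only if it had no decimals.

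After rounding, the expected counts went into edgeR 4.0.16 under R 4.3.3 (TMM, filterByExpr with a minimum count of 10, robust quasi-likelihood fit of the 3 groups together, 6 residual degrees of freedom, no block), and p-values were adjusted by Benjamini-Hochberg. Where the libraries of a group are not separate plants, p-values measure only the spread between libraries, which may be technical. The alternatives were library totals, DESeq2's size factors, DESeq2 1.42.0, limma 3.58.1 on log2(FPKM + 1) and log2(FPKM + 0.1), other count filters, a replicate block, other settings of the rule and each library left out. Tests and the rule were tried on simulated data.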

Additional observations from a re-analysis of the deposited data

How the results depend on the processing

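Which contigs are members depends on the rule's settings. Of the 100, 82 stayed with a count minimum of 30 and 73 with clustered contigs included, but 58 with no minimum beyond a value above 0, 58 with a window of 1.2-fold, 63 with a window of 2-fold, 55 when ranked by the ratio of group means and 58 on TMM-scaled counts per kilobase. On that last scale 99 of the 100 members had every late library below all 6 others. The same counts had chosen the members for this, so it is a description. The exception was Unigene19567_mixA, named after its values were seen. On the same scale 10 members left the window, among them Unigene3334_mixA and Unigene2301_mixA. With 1 library left out, 54 to 86 members stayed.

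Of the 100 members, edgeR called 81 lower in late than in early roots, beside 51 with library totals alone and 51 to 92 over the 8 other settings of the test. With 1 library left out the count ran from 36 to 86, with 36, 36 and 48 without early replicate 1, 2 and 3 and 41 and 45 without late replicate 1 and 2, and the cause was not tested. Over all contigs the number called in that comparison ran from 1598 (without early replicate 1) to 5687 (without late replicate 3), beside 3922. It was 1847 and 1728 without early replicate 2 and 3, and 1967 and 2038 without late replicate 1 and 2. Members called lower against terrestrial roots numbered 67 to 84 with 1 library left out, and 79 to 96 under the other settings, beside 86. Between early and terrestrial roots 4 (without early replicate 2) to 17 (without late replicate 3) members were called with 1 library left out, beside 8. Over all contigs, leaving out 1 library gave 12239 to 14027 calls for late against terrestrial and 14617 to 17059 for early against terrestrial roots. Under the 8 other settings of the test, calls over all contigs ran from 3093 to 5621 for late against early roots. They ran from 11224 to 14862 for late against terrestrial roots.

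The replicate block called 61 members lower against early roots and 80 against terrestrial roots. Over all 26747 tested contigs it called 1357 and 6216 lower, beside 1684 and 6475 without the block. The labels tie no replicate numbers together. The deviations of same-numbered libraries from their group means correlated at -0.0927 to 0.135 across contigs. Libraries of different numbers were not set beside these, so whether the numbers pair the libraries cannot be told. In 9 members the lowest count was under 20 reads, which limits those levels by counting error.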
